A study of Homo sapiens with 6 samples.

Results

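The protein-coding genes of chromosome 14 that the deposited expression table lists were followed along the chromosome in 2 human lung cancer lines. Members were taken by position: every listed gene that GENCODE 29 gives as protein-coding on chromosome 14, apart from symbols that start with DHRS, SLC, SERPIN, ZNF or FOX and from NKX2-1, FOS, EGLN3 and BCL2L2. This gave 234 members among 6641 listed genes, of which 5239 were protein-coding on a named chromosome, and it left 21 genes of the chromosome out by their symbol. The set was selected on the ratio of the lines along the chromosome, so every difference between the lines below describes the members and is no test of them.

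RNA sequencing covered 3 libraries of HCC827_Er and 3 of HCC827, all labelled as human non-small cell lung cancer cells from lung. The title of the series sets resistant cells against parental ones, and the labels give no drug, dose or time for either line. HCC827 was established from a lung adenocarcinoma and is known for an activating EGFR mutation in the epidermal growth factor receptor, and HCC827_Er bears its name with a suffix that the labels do not explain. Nothing states whether HCC827_Er is 1 clone or whether libraries of the same line stem from separate cultures, so the spread between libraries may be technical. Values are FPKM, fragment numbers corrected for transcript length and for the size of the library, so levels of different genes can be set side by side but the depth behind them is unknown. The FPKM of the listed genes summed to between 184633 and 190415 in HCC827_Er libraries and to between 222927 and 224211 in HCC827 libraries. Markers of lung adenocarcinoma epithelium were abundant, with 7 of 9 names listed and summed levels of 2870 to 2967 FPKM in HCC827_Er and 2197 to 2291 FPKM in HCC827. Of 5 leukocyte markers CD68 and CSF1R were listed, at a summed 117 to 129 FPKM in HCC827_Er and 170 to 177 FPKM in HCC827. Of 4 fibroblast markers 3 were listed and summed to 9.33 to 11.5 FPKM in HCC827_Er and 2.46 to 3.35 FPKM in HCC827, with COL3A1 under 1 FPKM. Of 3 endothelial markers only CDH5 was listed, at 0.52 to 0.75 FPKM in HCC827_Er and at 0 in all HCC827 libraries. These levels do not show that leukocytes, fibroblasts or endothelial cells were present. Any part of such cells in the values below was not tested.

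Chromosome 14 is acrocentric: its short arm carries ribosomal RNA genes, and its protein-coding genes lie on the long arm. Along that arm lie clusters of related genes, such as the RNase A family near the centromere, and single genes of many unrelated pathways. Near its far end lie an imprinted domain and the immunoglobulin heavy chain locus, which antibody-producing cells rearrange. In lung epithelium the arm is known for a group of developmental transcription factor genes that includes PAX9 and NKX2-8.

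The sequences of 5 promoters are printed below, each as RefSeq gives it on GRCh38.p14. Each runs from 250 bases before to 50 bases after the start of the gene on the gene's own strand. RPS29, the most abundant member, encodes a protein of the small ribosomal subunit and starts back to back with LRR1, a leucine-rich repeat protein of ubiquitin ligase complexes. The windows of these neighbours, chr14:49598661-49598960 on the minus strand and chr14:49598690-49598989 on the plus strand, share 271 bases (no base is capitalised here), and both genes were higher in HCC827_Er.
RPS29: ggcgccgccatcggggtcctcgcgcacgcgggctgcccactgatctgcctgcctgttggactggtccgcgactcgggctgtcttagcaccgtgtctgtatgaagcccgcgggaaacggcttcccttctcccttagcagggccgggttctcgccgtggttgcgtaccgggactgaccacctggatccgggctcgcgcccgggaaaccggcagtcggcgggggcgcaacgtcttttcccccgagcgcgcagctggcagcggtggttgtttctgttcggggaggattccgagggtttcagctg
LRR1: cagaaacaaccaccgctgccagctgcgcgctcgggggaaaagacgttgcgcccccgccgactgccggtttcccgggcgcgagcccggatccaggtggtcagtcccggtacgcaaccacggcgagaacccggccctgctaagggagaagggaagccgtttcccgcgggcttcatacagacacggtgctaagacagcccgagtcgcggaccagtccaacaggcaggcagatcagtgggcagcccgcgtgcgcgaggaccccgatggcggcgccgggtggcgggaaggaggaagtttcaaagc
IFI27, an interferon-induced protein of mitochondria, and IFI27L2, a gene of the same family, lie close together and differed between the lines in opposite directions. NFKBIA, the inhibitor that holds NF-kB in the cytoplasm, was at a high level in both lines. The windows are chr14:94110486-94110785 on the plus strand for IFI27, chr14:94129555-94129854 on the minus strand for IFI27L2 and chr14:35404700-35404999 on the minus strand for NFKBIA. Capitals mark GAAANNGAA, the core that interferon regulatory factors are known to bind, on either strand, with N for any base.
IFI27: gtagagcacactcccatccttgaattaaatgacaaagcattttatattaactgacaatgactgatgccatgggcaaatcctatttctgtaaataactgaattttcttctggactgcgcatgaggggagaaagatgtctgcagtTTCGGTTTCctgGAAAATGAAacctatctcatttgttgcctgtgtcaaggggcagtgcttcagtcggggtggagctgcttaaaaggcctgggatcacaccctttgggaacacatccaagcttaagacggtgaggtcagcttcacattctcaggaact
IFI27L2: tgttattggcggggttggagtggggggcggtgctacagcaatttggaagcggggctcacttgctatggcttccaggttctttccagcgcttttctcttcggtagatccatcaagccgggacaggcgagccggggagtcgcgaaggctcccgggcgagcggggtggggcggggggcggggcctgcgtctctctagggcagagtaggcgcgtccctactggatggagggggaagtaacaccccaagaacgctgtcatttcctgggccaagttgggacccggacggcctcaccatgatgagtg
NFKBIA: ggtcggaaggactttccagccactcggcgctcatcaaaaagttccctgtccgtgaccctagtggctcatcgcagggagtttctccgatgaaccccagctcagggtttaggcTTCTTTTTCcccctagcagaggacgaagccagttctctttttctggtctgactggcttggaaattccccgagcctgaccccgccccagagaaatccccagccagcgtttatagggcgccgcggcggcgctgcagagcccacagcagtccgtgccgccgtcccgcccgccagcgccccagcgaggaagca
The IFI27 window held the motif once as printed and once on the complementary strand, the NFKBIA window once on the strand complementary to the one printed, and the IFI27L2 window did not hold these letters. The windows of IRF9, TNFAIP2 and PELI2, other members of interferon or NF-kB signalling, did not hold them either. Among all 27305 RefSeq promoters of this length 2264 held the motif (8.29%), and among the 202 members with a RefSeq promoter it was held by 18 (8.91%). A match describes the letters alone and marks no bound site.

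Most members stood higher in HCC827_Er, and by a similar factor. The members made up 7.20%, 6.82% and 6.89% of all listed FPKM in the 3 HCC827_Er libraries, against 3.18%, 3.15% and 3.17% in the 3 HCC827 libraries. The share averaged 6.97% ± 0.205 in HCC827_Er and 3.17% ± 0.0196 in HCC827 (SD, n = 3 each), with every HCC827_Er library above every HCC827 library. In bulk RNA more cells of a type and more RNA per cell cannot be told apart. RPS29 alone held a large part of this sum, and without it the shares were 5.63%, 5.38% and 5.48% in HCC827_Er and 2.58%, 2.54% and 2.61% in HCC827. The median member had 19.02, 19.2 and 19.73 FPKM in the HCC827_Er libraries and 10.25, 10.52 and 10.4 FPKM in the HCC827 libraries. The lines were thus apart on the median member as well as on the sum.

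Of the 234 members 207 had at least 1 FPKM in 3 or more of the 6 libraries and entered the fit across all 5276 such genes. Among these 207, 180 had at least 1 FPKM in all 6 libraries, and 15 passed through 1 line only and so had to differ. The other 27 members stayed low, with a highest line mean of 1.58 FPKM. Of these 27, 19 were higher in HCC827_Er, 3 were at 0 in all HCC827_Er libraries and 2 were at 0 in all HCC827 libraries. Differences are given as log2(FPKM + 1) in HCC827_Er minus HCC827, a scale that understates the change of low genes. The difference was positive in 185 members and negative in 22 (89.4% positive), with a median of 0.82 and a middle range from 0.63 to 1.13 between the quartiles. Calls required an adjusted p under 0.05 by limma, with Benjamini-Hochberg adjustment over all genes tested, and an absolute difference of at least 1. The adjusted p was under 0.05 in 5187 of the 5276 genes tested and in 203 of the 207 members. A call thus rests almost wholly on the size of the difference. How genes entered the table is not known, so the adjusted p is no measure of the share of false calls. By that rule 67 members were called higher (32.4%, against 24.7% of all genes tested) and 11 were called lower (5.31%, against 19.7%). With libraries rescaled by median ratios, which shifts HCC827_Er by -0.34 against HCC827, the calls were 32 higher and 14 lower. The 3 HCC827_Er libraries did not overlap the 3 HCC827 libraries, in either direction, in 202 members, against 97.1% of all genes tested, and the other 5 members overlapped. Since the members were chosen on this contrast, nothing is read from these shares.

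The ratio is clearest in members with a mean of at least 10 FPKM, where the added 1 matters little. Of 132 such members 127 were higher in HCC827_Er (96.2%), and the ratio of the mean FPKM had a median of 1.86, with quartiles of 1.65 and 2.18. The ratio lay between 1.5 and 2.5 in 102 members (77.3%), above 4 in 7 (5.30%) and below 1 in 5. Of 2062 protein-coding genes of other chromosomes at this level, 870 were higher in HCC827_Er (42.2%), 564 had a ratio between 1.5 and 2.5 (27.4%), 139 were above 4 (6.74%) and 141 were below 1/4 (6.84%). Only 1 member fell below 1/4, CCDC198. Among all tested members higher in HCC827_Er, the median log2 difference was 0.86, with quartiles of 0.70 and 1.16. Among tested coding genes of other chromosomes higher in HCC827_Er it was 1.00, with quartiles of 0.74 and 1.55. A ratio near 2 was thus common among higher genes elsewhere too, and the shares above also reflect how many genes were higher. The deposited table holds hardly any gene with similar levels in the lines: no member of these 132 and 14 of the 2062 other genes had lines within 1.32-fold of each other. The absence of members near equal levels thus cannot be told apart from how genes entered the table. Among the 75 tested members with a mean under 10 FPKM, 58 were higher in HCC827_Er (77.3%), and over the 72 with a value in every library the median ratio was 2.00, with quartiles of 1.44 and 2.69. These quartiles stood farther apart than those of the more abundant members.

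**Figure D1:**
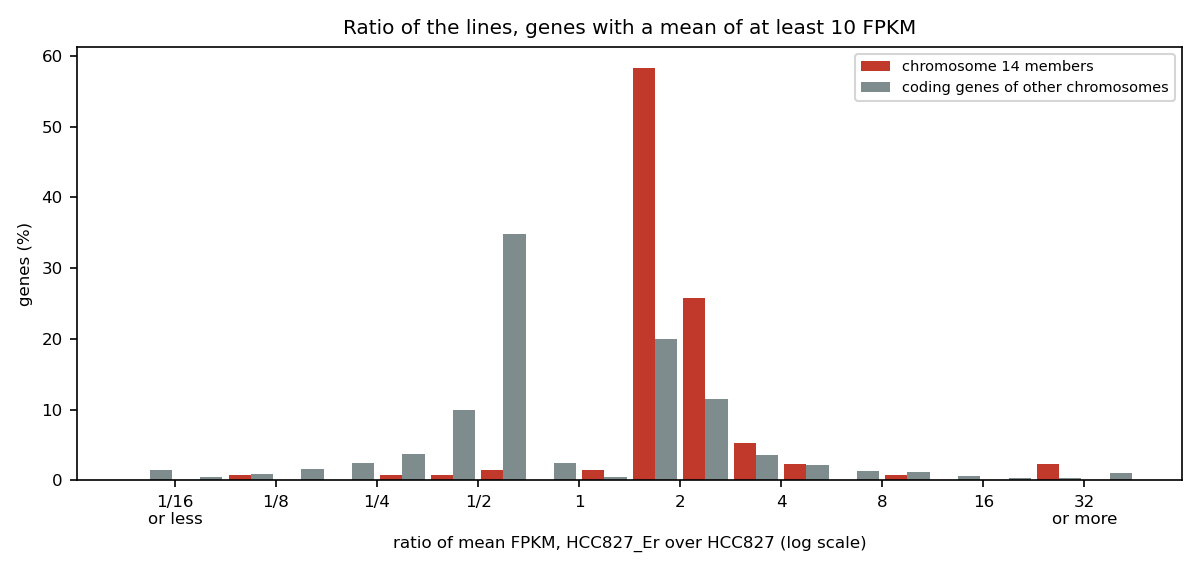
Share of genes (%) by ratio of mean FPKM, HCC827_Er over HCC827, on a log axis, for 132 chromosome 14 members (red) and for 2046 coding genes of other chromosomes with a value in every library (grey), all with a mean of at least 10 FPKM. The outermost bars hold all genes beyond the axis, and most red bars stand near 2, while the grey ones stand on both sides of an almost empty middle.

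The difference was spread over the whole long arm. The first member starts at 20.3 Mb and the last ends at 105.5 Mb of GENCODE 29 on GRCh38, coordinates that need not be those of the authors' build. CCNB1IP1, a ubiquitin ligase of meiotic crossing over at the centromeric end, had 60.33, 64.13 and 62.54 FPKM in HCC827_Er and 33.83, 37.9 and 35.8 FPKM in HCC827, a log2 difference of 0.78. TEDC1, a tubulin and centriole factor at the far end, had 24.24, 22.07 and 22.22 FPKM in HCC827_Er and 12.26, 14.12 and 12.14 FPKM in HCC827, a difference of 0.79. In both of these end genes the HCC827_Er libraries lay above the HCC827 libraries by nearly the same factor. The members that follow CCNB1IP1, from RNASE4 to ARHGEF40, were mixed. RNASE4, ANG, AL163636.2, NDRG2 and ARHGEF40 were lower in HCC827_Er, and RNASE1 and RNASE7 were higher.

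Cut into windows of 10 Mb, the tested members had a positive median difference in all 9 windows. The lowest window median was 0.72, over 8 members from 80 to 90 Mb, and the highest was 0.96, over 22 members from 50 to 60 Mb. From 20 to 30 Mb, the window with the most members, 30 of 37 were higher in HCC827_Er, and from 70 to 80 Mb 31 of 32 were. From 40 to 50 Mb, a stretch with few genes, all 10 were higher in HCC827_Er. The 9 medians had an SD of 0.085. On the other chromosomes 206 windows with at least 8 tested coding genes had medians between -1.35 and 1.45 with an SD of 0.72. Of these windows 95 had a positive median (46.1%). Since the deposited table holds hardly any gene with similar levels in the lines, few window medians can lie near 0. How far this widens the SD of the other chromosomes was not tested. The longest unbroken run of members higher in HCC827_Er held 35 genes, from MTHFD1 at 64.4 Mb to YLPM1 at 74.9 Mb. A running median over 11 neighbouring members stayed above 0 at all 197 points, between 0.38, from EML1 to EXOC3L4, and 1.13, from GCH1 to SIX4.

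**Figure D2:**
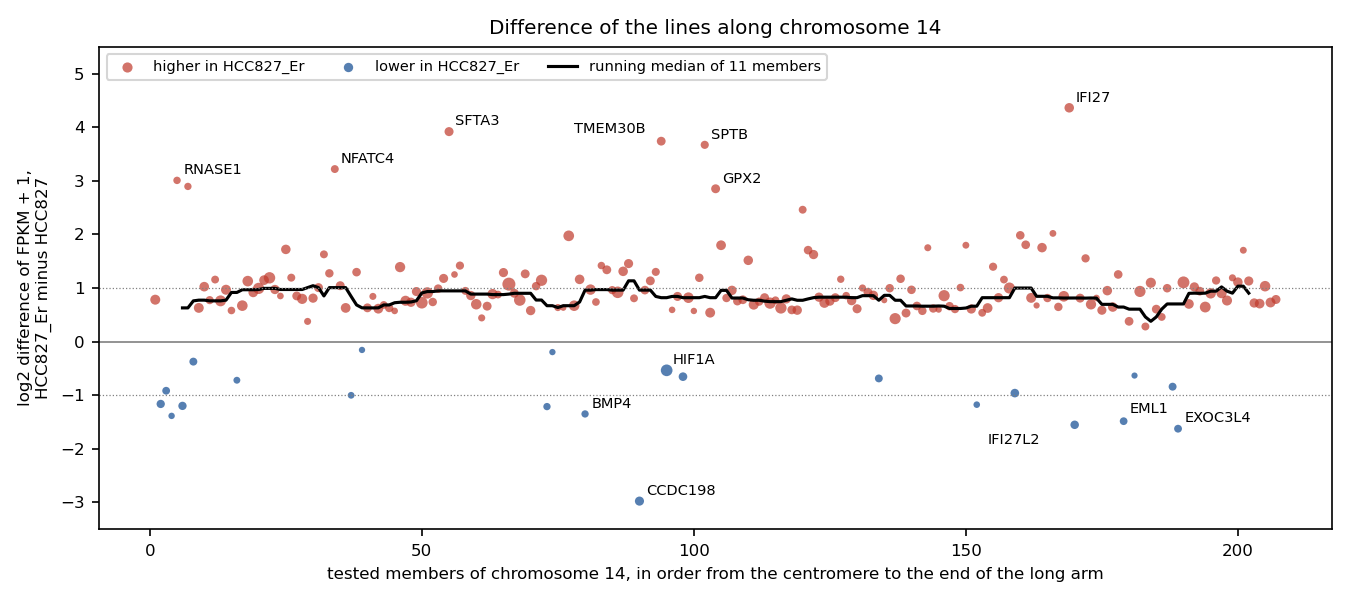
Log2 difference of FPKM + 1, HCC827_Er minus HCC827, of the 207 tested members in their order along chromosome 14, with larger points for more abundant genes and a black running median of 11 members. The median stays above 0 from end to end, and the 22 members below 0 are scattered along the order.

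Neighbours were hardly more alike than distant members. Adjacent members differed by a median of 0.40 in their log2 difference, members 5 places apart by 0.44 and members 20 places apart by 0.46. Pearson's r between the differences was -0.045 over 206 adjacent pairs, 0.035 over 202 pairs 5 apart and -0.088 over 187 pairs 20 apart, as descriptions of pairs that share genes and libraries. Adjacent members had the same sign in 82.5% of pairs, members 20 apart in 81.8%. Of the 22 members lower in HCC827_Er, 7 had a neighbour in the order that was lower too.

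Back-to-back starts give the closest neighbours. In 5 pairs of tested members, the promoter windows of a minus-strand and a plus-strand gene overlap, and both genes of each pair were higher in HCC827_Er. RPS29 had 2913, 2738 and 2681 FPKM in HCC827_Er and 1341, 1356 and 1262 FPKM in HCC827. LRR1 had 20.69, 20.37 and 23.88 FPKM in HCC827_Er and 9.59, 13.64 and 10.4 FPKM in HCC827. The genes of this pair, whose shared promoter is printed above, thus differ widely in level, while their log2 differences between the lines were 1.07 and 0.90. PSME2 and RNF31, a subunit of the linear ubiquitin chain assembly complex, had differences of 1.19 and 0.97, and WDHD1 and SOCS4, a suppressor of cytokine signalling, 1.34 and 0.96. ACIN1, a splicing-associated protein, and C14orf119 had 0.76 and 0.97, and TMED8 and SAMD15 had 0.62 and 0.60. The gap within a pair ran between 0.02 and 0.38, with a median of 0.21. RPS29 and LRR1, PSME2 and RNF31, and ACIN1 and C14orf119 also share exon sequence on opposite strands. The sources used here do not state strand-aware counting, so reads of these partners cannot be told apart. Their like differences may thus not be independent.

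Other chromosomes were set beside it with all their tested protein-coding genes, for which chromosome 14 counts 226, the symbols left out above included. On chromosome 14 88.5% of these genes were higher in HCC827_Er, the highest share of 23 chromosomes, with a median difference of 0.84. Chromosome X followed closely with 86.6% of 247 genes and a median of 0.86, and chromosome 2 had 72.4% of 286 genes and a median of 0.79. Chromosome 13 stood at the other end, with 19.1% of 68 genes higher in HCC827_Er and a median of -0.69. The quartiles of chromosome 14 were 0.63 and 1.16, both positive, those of chromosome X were 0.66 and 1.16, and those of chromosome 2 were -0.48 and 1.24. The table lists 255 of the 613 protein-coding genes that GENCODE 29 places on chromosome 14 (41.6%), the highest share of the 23 chromosomes. It lists 33.0% of those on chromosome X and 25.9% over all chromosomes other than 14. Within chromosome 14 the listed share ran between 28.8% from 20 to 30 Mb and 52.4% from 40 to 50 Mb.

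**Figure D3:**
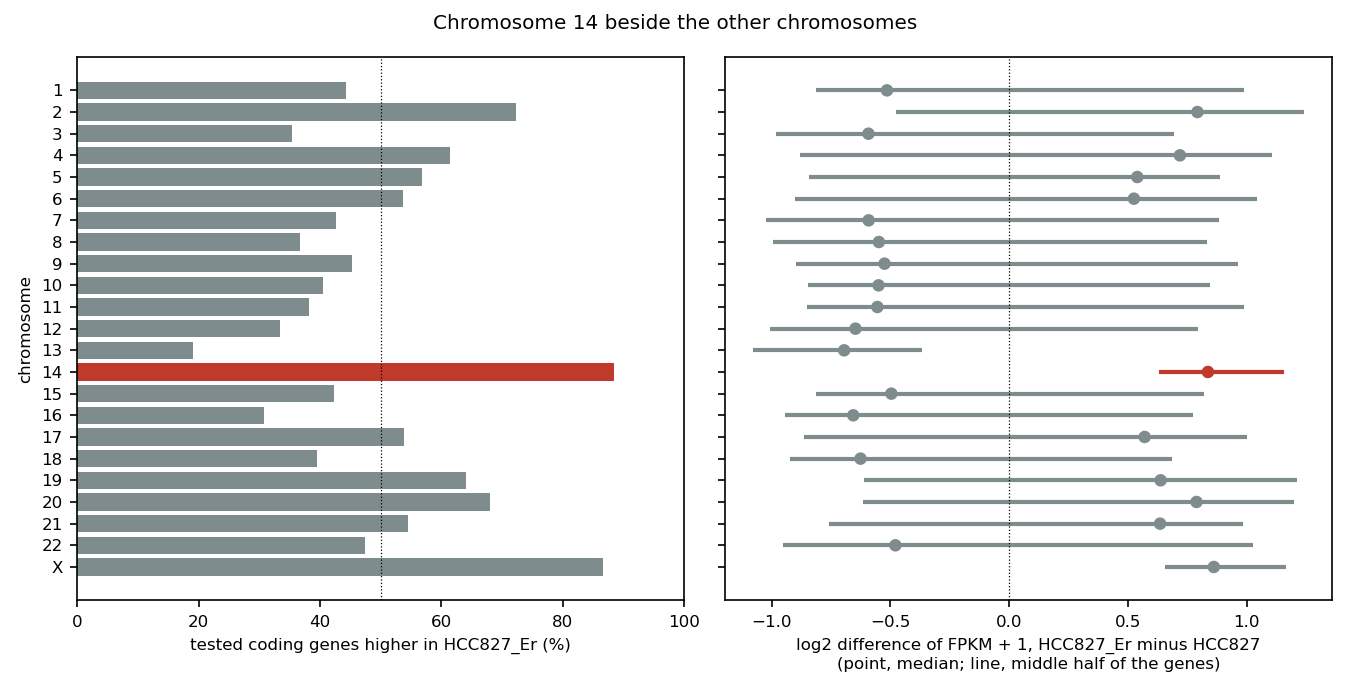
Left, share of tested coding genes that were higher in HCC827_Er (%) on each chromosome; right, the median (point) and quartiles (line) of the log2 difference of FPKM + 1, HCC827_Er minus HCC827. Chromosome 14 (red) and X stand at the right with narrow ranges that do not reach 0, and chromosome 13 stands at the left.

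Among members of interferon and NF-kB signalling, 4 of 5 tested were higher in HCC827_Er, 3 called higher and 1 called lower. The median was 1.11, beside 0.82 over all tested members and 0.43 over all genes tested. The median over all genes tested was -0.42 with a minimum of 5 FPKM, so it is an unsteady measure. For this and every list below, 24.7% of all genes tested were called higher and 19.7% lower. Among tested members these shares were 32.4% and 5.31%, and nothing is read from the counts of a list. IFI27 had 58.67, 47.78 and 66.9 FPKM in HCC827_Er and 2.28, 1.7 and 1.55 FPKM in HCC827, a ratio of 31.3. All HCC827_Er libraries were far above all HCC827 libraries, and its log2 difference of 4.37 was the largest among tested members. IFI27L2, its neighbour, had 5.72, 4.56 and 4.44 FPKM in HCC827_Er and 16.17, 18.1 and 14.66 FPKM in HCC827, a log2 difference of -1.55. Here the HCC827_Er libraries were all below, so the 2 promoters printed above belong to genes on opposite sides. IRF9, the DNA-binding subunit of the interferon-activated complex ISGF3, had 46.4, 47.31 and 44.01 FPKM in HCC827_Er and 13.49, 12.32 and 13.89 FPKM in HCC827, a ratio of 3.47. TNFAIP2, a protein induced by tumour necrosis factor and the second most abundant member, had 642.92, 622.24 and 617.51 FPKM in HCC827_Er and 288.43, 281.83 and 303.19 FPKM in HCC827. NFKBIA had 316.97, 317.37 and 298.57 FPKM in HCC827_Er and 166.07, 162.76 and 166.53 FPKM in HCC827, a difference of 0.91 that was not called. The ratios of TNFAIP2 and NFKBIA, 2.16 and 1.88, lay near that of the typical member. PELI2, a ubiquitin ligase of Toll-like receptor signalling, was too low to be tested, at 1.33, 1.88 and 0.99 FPKM in HCC827_Er and 0.16, 0.01 and 0.02 FPKM in HCC827.

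All 4 tested proteasome members were higher in HCC827_Er, 1 of them called, with a median of 0.86. PSME1 and PSME2 encode the alpha and beta subunits of the PA28 activator, which interferon gamma induces and which opens the proteasome for antigen processing. PSME2 had 361.33, 343.43 and 362.51 FPKM in HCC827_Er and 143.48, 151.02 and 172.64 FPKM in HCC827, and was called higher with a difference of 1.19. PSME1 had 276, 274.93 and 281.22 FPKM in HCC827_Er and 135.57, 143.63 and 137.38 FPKM in HCC827, a difference of 0.99. PSMA6, an alpha subunit of the core particle, had 386.01, 417.7 and 400.93 FPKM in HCC827_Er and 231.93, 248.73 and 246.6 FPKM in HCC827, a difference of 0.73. PSMC6, an ATPase of the regulatory particle, had a difference of 0.67. The activator subunits thus had larger differences than the core and regulatory subunits, with no overlap between the lines in the 3 given by library.

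The RNase A family, secreted ribonucleases clustered near the centromere, was divided: of 4 tested members 2 were called higher and 1 was called lower. RNASE1, the pancreatic-type enzyme, had 8.83, 6.94 and 6.7 FPKM in HCC827_Er and was listed at 0, 0 and 0.15 FPKM in HCC827. RNASE7, an antimicrobial ribonuclease of epithelia, had 7.97, 5.41 and 6.69 FPKM in HCC827_Er and 0, 0.07 and 0 FPKM in HCC827. Both were called higher, but both passed the filter through HCC827_Er only. That all HCC827_Er libraries lay above all HCC827 libraries was thus fixed in advance. RNASE4 had 5.21, 4.59 and 4.99 FPKM in HCC827_Er and 12.92, 10.54 and 13.56 FPKM in HCC827, and was called lower with a difference of -1.16. ANG, angiogenin, had 4.02, 3.17 and 2.87 FPKM in HCC827_Er and 7.76, 6.67 and 7.12 FPKM in HCC827, a difference of -0.92. RNASE4, ANG and the unnamed locus AL163636.2 share exons on the same strand, so their FPKM depend on how fragments were divided among them, and their shared side counts as 1 observation. None of the 4 genes in the list of leukocyte granule proteases, cathepsin G and the granzymes among them, was in the table used here.

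Genes of DNA repair, replication and mitosis were all higher in HCC827_Er, 13 of 13, with 7 called higher and a median of 1.02. WDHD1, a replisome protein that links the helicase to polymerase alpha, had 19.77, 22.97 and 22.8 FPKM in HCC827_Er and 6.63, 8.8 and 8.76 FPKM in HCC827. DLGAP5, a spindle protein, had 40.58, 45.05 and 45.58 FPKM in HCC827_Er and 15.11, 17.45 and 18.61 FPKM in HCC827. Their differences of 1.34 and 1.31 were the largest of the list, and in neither gene did the lines overlap. POLE2, a subunit of DNA polymerase epsilon, had 21.06, 20.46 and 25.32 FPKM in HCC827_Er and 7.85, 9.4 and 8.76 FPKM in HCC827. Differences of the list reached down to 0.65 for CCNK, cyclin K. XRCC3, a protein of homologous recombination, had a difference of 1.02, MLH3, a mismatch repair protein, 1.00, and FANCM, a Fanconi anaemia helicase, 0.88. The list thus lay close around the chromosome's own median and held no gene of very different ratio.

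Translation and RNA handling gave the same picture at high levels: 11 of 11 were higher in HCC827_Er, 2 were called higher, and the median was 0.78. RPS29 was called higher at a ratio of 2.10, while RPL36AL, a protein of the large ribosomal subunit, was not called, with 376.06, 361.27 and 367.22 FPKM in HCC827_Er and 216.12, 212.93 and 214.63 FPKM in HCC827. RPS29 shares exon sequence with the pseudogene RPL32P29 on its strand, and ribosomal protein genes have many near-identical copies in the genome, so its level is uncertain. NOP9, which acts in ribosome assembly, had 23.96, 21.66 and 22.45 FPKM in HCC827_Er and 10.25, 11.17 and 10.91 FPKM in HCC827. WARS, the tryptophanyl-tRNA synthetase, had a difference of 0.94, and DICER1, the ribonuclease that cuts microRNA precursors, 0.81. The smallest difference of the list was 0.58.

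All 5 tested genes of the mitochondrial list were higher in HCC827_Er and none passed the call rule, with differences of 0.61 to 0.80. COX16, an assembly factor of cytochrome c oxidase, had 31.5, 28.1 and 28.61 FPKM in HCC827_Er and 17.74, 15.94 and 15.81 FPKM in HCC827. ABCD4, a transporter known for cobalamin export from lysosomes and so not a mitochondrial protein, had 34.48, 31.98 and 30.32 FPKM in HCC827_Er and 18.17, 17.27 and 20.3 FPKM in HCC827. In both the lines were apart.

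**Figure D4:**
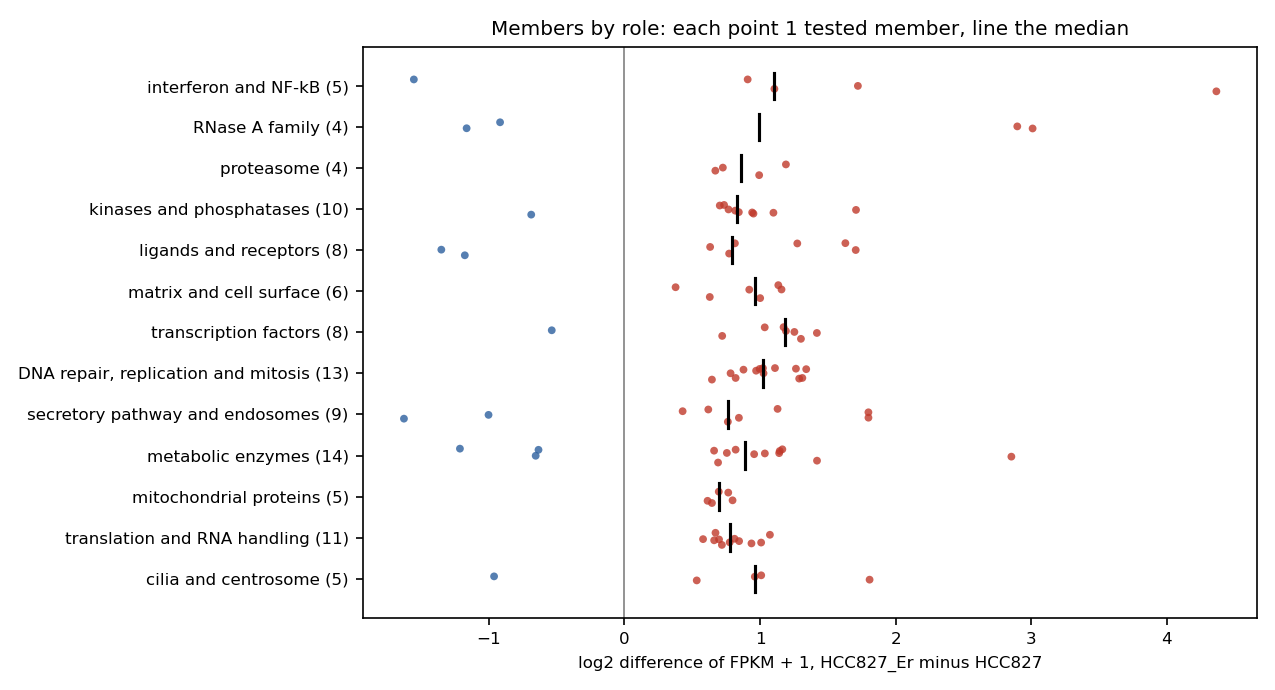
Log2 difference of FPKM + 1, HCC827_Er minus HCC827, of each tested member of 13 lists (number tested in brackets), with the list median as a black line. Medians stand between 0.70 and 1.18, and single members of some lists lie far to the right or below 0.

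Among transcription factors 7 of 8 were higher in HCC827_Er, 6 of them called, with a median of 1.18. HIF1A, the oxygen-regulated subunit of hypoxia-inducible factor 1, was the exception, with 274.55, 295.33 and 294.08 FPKM in HCC827_Er and 410.82, 402.93 and 440.62 FPKM in HCC827, a difference of -0.54. It was the most abundant member on the lower side, and the lines did not overlap. PAX9, a paired box factor of foregut and tooth development, had 11.82, 11.56 and 12.57 FPKM in HCC827_Er and 3.86, 3.96 and 3.74 FPKM in HCC827. SIX4, a homeobox factor, had 10.88, 11 and 9.26 FPKM in HCC827_Er and 3.68, 3.45 and 3.69 FPKM in HCC827. NKX2-8, a homeobox factor whose gene lies beside PAX9, had 3.1, 3 and 2 FPKM in HCC827_Er and 0.48, 0.67 and 0.47 FPKM in HCC827. All 3 developmental factors stood higher in every HCC827_Er library at modest levels, which the filter fixed in advance for NKX2-8. ZBTB42, a zinc finger repressor, had 4.61, 3.92 and 3.6 FPKM in HCC827_Er and 1.54, 1.05 and 1.05 FPKM in HCC827. MTA1, a subunit of the NuRD chromatin complex, had a mean of 119.5 ± 18.1 FPKM in HCC827_Er and 57.6 ± 4.90 FPKM in HCC827 (SD, n = 3 each).

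Of the ligands and receptors 6 of 8 were higher in HCC827_Er, with 3 called higher, 2 called lower and a median of 0.79. LTB4R2 and LTB4R, the low-affinity and high-affinity receptors of leukotriene B4, lie next to each other. LTB4R2 had 10.45, 8.61 and 10.06 FPKM in HCC827_Er and 2.52, 2.72 and 2.14 FPKM in HCC827, and LTB4R had 14.03, 12.3 and 16.79 FPKM in HCC827_Er and 6.25, 5.61 and 4.24 FPKM in HCC827. The receptors share exons with each other, and LTB4R2 shares exons with NOP9, all on 1 strand, so the division of fragments among the 3 is uncertain. GPR132, a receptor of lysophospholipids and protons, had 4.49, 3.61 and 3.16 FPKM in HCC827_Er and 0.5, 0.51 and 0.34 FPKM in HCC827. BMP4, a secreted bone morphogenetic protein, was called lower, with 1.8, 1.16 and 1.33 FPKM in HCC827_Er and 4.62, 4.71 and 6.28 FPKM in HCC827. FLRT2, a membrane protein that binds Unc5 receptors and latrophilins, was called lower too, with 0.15, 0.4 and 1.07 FPKM in HCC827_Er and 2.79, 1.48 and 3.1 FPKM in HCC827. Both are low genes, and FLRT2 came nearer to an overlap between the lines.

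Among kinases and phosphatases 9 of 10 were higher in HCC827_Er, 2 called, with a median of 0.83. MAP3K9, a mixed-lineage kinase upstream of JNK, had 18.95, 18.49 and 18.72 FPKM in HCC827_Er and 5.61, 4.37 and 5.2 FPKM in HCC827, a ratio of 3.70. PPP2R5C, a regulatory subunit of protein phosphatase 2A, had 76.13, 77.75 and 85.58 FPKM in HCC827_Er and 37.07, 36.14 and 36.87 FPKM in HCC827. AKT1, a central kinase downstream of growth factor receptors, had 73.23, 66.02 and 63.64 FPKM in HCC827_Er and 39.49, 36.17 and 42.33 FPKM in HCC827, a difference of 0.77 that was not called. MAP3K9 stood apart from the usual ratio, and AKT1 did not. The kinase-like gene RPS6KL1 was lower in HCC827_Er by 0.69, with means of 4.24 ± 1.08 FPKM in HCC827_Er and 7.35 ± 0.733 FPKM in HCC827 (SD, n = 3 each).

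The matrix and cell surface list had 6 of 6 tested members higher in HCC827_Er and 3 called, with a median of 0.96. LGALS3, the secreted lectin galectin-3, had 368.85, 408.55 and 426.39 FPKM in HCC827_Er and 213.02, 194.88 and 226.76 FPKM in HCC827, a difference of 0.92. CDH24, a cadherin, had 9.95, 7.75 and 7.01 FPKM in HCC827_Er and 3.81, 2.45 and 3.16 FPKM in HCC827. DAAM1, a formin that acts in planar Wnt signalling, had 18.24, 22.38 and 25.68 FPKM in HCC827_Er and 13.17, 8.64 and 7.3 FPKM in HCC827. LTBP2, a matrix protein of the fibrillin superfamily, had 4.38, 4.1 and 3.62 FPKM in HCC827_Er and 1.75, 1.31 and 1.49 FPKM in HCC827. None of these 4 overlapped between the lines. TGM1, another tested member of the list, did overlap, with 3.2, 2.3 and 3.11 FPKM in HCC827_Er and 1.67, 3.29 and 1.27 FPKM in HCC827.

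In the secretory pathway and endosomes 7 of 9 were higher in HCC827_Er, with 3 called higher, 2 called lower and a median of 0.76. AP1G2, a gamma subunit of an AP-1 type clathrin adaptor, had 144.06, 123.46 and 134.44 FPKM in HCC827_Er and 61.49, 58.06 and 62.3 FPKM in HCC827. RAB15, a small GTPase of endosome recycling, had 59.21, 63.03 and 57.5 FPKM in HCC827_Er and 17.61, 15.44 and 16.49 FPKM in HCC827. STON2, an endocytic adaptor, was low in HCC827, with 3.23, 4.21 and 4.06 FPKM in HCC827_Er and 0.35, 0.37 and 0.43 FPKM in HCC827. These 3 were called higher, while TMED10, a cargo receptor between endoplasmic reticulum and Golgi, had a ratio of only 1.35 at 216 ± 16.1 FPKM in HCC827_Er and 160 ± 5.44 FPKM in HCC827 (SD, n = 3 each). EXOC3L4, related to the exocyst subunit EXOC3, was called lower, with 2.2, 1.53 and 2.83 FPKM in HCC827_Er and 6.85, 11.53 and 8.27 FPKM in HCC827. STXBP6, a SNARE-binding protein also named amisyn, was called lower at 0.36, 1.23 and 1.21 FPKM in HCC827_Er and 2.97, 3.15 and 2.27 FPKM in HCC827.

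Of 14 metabolic enzymes 11 were higher in HCC827_Er, with 6 called higher, 1 called lower and a median of 0.89. GPX2, the glutathione peroxidase of epithelial cells, had 32.03, 29.15 and 26.38 FPKM in HCC827_Er and 2.76, 2.97 and 3.84 FPKM in HCC827, a ratio of 9.15. GCH1, which makes the first step toward tetrahydrobiopterin, had 6, 6.73 and 6.02 FPKM in HCC827_Er and 1.55, 1.6 and 1.99 FPKM in HCC827. ALDH6A1, a mitochondrial enzyme of valine breakdown, had 5.41, 5.25 and 4.98 FPKM in HCC827_Er and 1.51, 1.77 and 2.06 FPKM in HCC827. PYGL, liver glycogen phosphorylase, was the most abundant of the list, with a mean of 292 ± 11.4 FPKM in HCC827_Er and 132 ± 5.89 FPKM in HCC827 (SD, n = 3 each). ABHD12B, a hydrolase-like protein, was called lower, with 1.62, 1.47 and 1.67 FPKM in HCC827_Er and 4.83, 5.93 and 4.33 FPKM in HCC827. SGPP1, a sphingosine-1-phosphate phosphatase, and DEGS2, which acts on dihydroceramide, were lower in HCC827_Er by 0.65 and 0.63 and were not called.

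Of 5 genes in the list of cilia and centrosome 4 were higher in HCC827_Er and 2 were called, with a median of 0.96. CCDC88C, a Dishevelled-binding protein also named Daple, had 19.02, 17.6 and 24.34 FPKM in HCC827_Er and 4.92, 5.12 and 5.07 FPKM in HCC827. CEP128, a protein of centriole appendages, had 5.61, 7.73 and 5.98 FPKM in HCC827_Er and 3.34, 2.08 and 2.7 FPKM in HCC827. TTC7B, which is known as a scaffold of a phosphatidylinositol 4-kinase rather than a ciliary protein, had 10.48, 6.03 and 7.25 FPKM in HCC827_Er and 14.67, 14.63 and 19.07 FPKM in HCC827. It was the only gene of the list on the lower side.

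Of the called members with at least 5 FPKM in the higher line, those with the largest difference in their window were mostly outside the lists and often stood far beyond the usual ratio. SFTA3, a surfactant-associated gene of lung, had 32.41, 36.43 and 35.81 FPKM in HCC827_Er and 1.08, 1.37 and 1.69 FPKM in HCC827, a ratio of 25.3. TMEM30B, a subunit of phospholipid flippases, had 29.66, 27.7 and 27.05 FPKM in HCC827_Er and 1.44, 1.2 and 0.92 FPKM in HCC827, a ratio of 23.7. NFATC4, a calcineurin-regulated transcription factor, had 12.93, 11.55 and 10.36 FPKM in HCC827_Er and 0.45, 0.34 and 0.26 FPKM in HCC827, a ratio of 33.2. In each the HCC827 libraries had at most 1.69 FPKM and the HCC827_Er libraries stood well above, though NFATC4 passed the filter through HCC827_Er only. SPTB, the beta spectrin of red cells, had 15.1, 14.74 and 14.67 FPKM in HCC827_Er and 0.21, 0.35 and 0.17 FPKM in HCC827, and shares exon sequence with PLEKHG3 on the opposite strand. TMEM30B overlaps PRKCH in the same way, and since the sources used here do not state strand-aware counting, reads of such partners cannot be told apart. ERO1A, which oxidises protein disulfide isomerase in the endoplasmic reticulum, had 156.78, 178 and 177.51 FPKM in HCC827_Er and 42.43, 40.19 and 45.41 FPKM in HCC827, a ratio of 4.0 at a high level. TTC9, a tetratricopeptide repeat protein, had 10.79, 10.83 and 10.66 FPKM in HCC827_Er and 1.04, 1.09 and 1.28 FPKM in HCC827. EFCAB11, a protein with EF-hand motifs, had 11.45, 12.22 and 11.74 FPKM in HCC827_Er and 3.83, 2.66 and 5.48 FPKM in HCC827. ADSSL1, the muscle form of adenylosuccinate synthase, had 14.9, 11.07 and 9.86 FPKM in HCC827_Er and 4.59, 5.24 and 4.57 FPKM in HCC827. TTC9, EFCAB11 and ADSSL1 did not overlap between the lines.

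**Figure D5:**
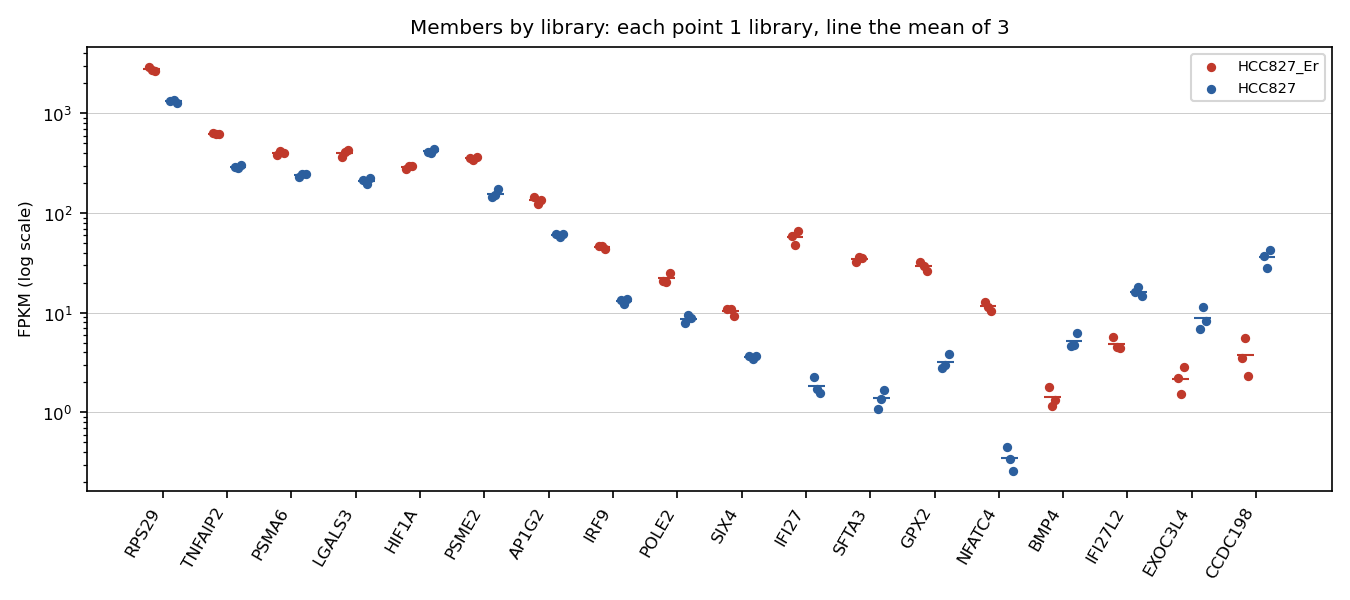
FPKM on a log axis of 18 members, with 1 point per library and a line at the mean of 3, HCC827_Er (red) left of HCC827 (blue). RPS29 and TNFAIP2 show the usual ratio near 2, IFI27, SFTA3, GPX2 and NFATC4 a far wider one, and HIF1A, BMP4, IFI27L2, EXOC3L4 and CCDC198 stand lower in HCC827_Er.

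The 22 members on the lower side had a median difference of -0.98 and were scattered, with 7 in the window from 20 to 30 Mb. CCDC198 had the lowest log2 difference of the tested members, with 3.49, 5.57 and 2.33 FPKM in HCC827_Er and 37.29, 27.91 and 42.38 FPKM in HCC827, a difference of -2.98. NDRG2, a gene known for low expression in many tumours, had 5.19, 5.03 and 4.6 FPKM in HCC827_Er and 13.98, 13.29 and 10.84 FPKM in HCC827. EML1, a microtubule-associated protein, had 2.26, 2.05 and 2.27 FPKM in HCC827_Er and 7.62, 8.93 and 7.34 FPKM in HCC827. Each was called lower with no overlap between the lines. NDRG2 lies among the RNase A genes, and its neighbours in the order, RNASE1 and RNASE7, were both called higher. RNASE4, ANG and AL163636.2, which share exons, and ARHGEF40 were on the lower side there. The readthrough transcript BCL2L2-PABPN1 was on the lower side by 0.72, while PABPN1, a poly(A)-binding protein that it shares sequence with, was on the higher side by 0.67. Members on the lower side were less abundant, with a median of 5.4 FPKM over all libraries, against 16.4 FPKM for the 185 on the higher side. Only 5 of the 22 had a mean of at least 10 FPKM. Their median coefficient of variation was 22.7% in HCC827_Er and 12.9% in HCC827, against 7.50% in HCC827_Er and 9.23% in HCC827 for members on the higher side. Their genes had a median length of 20.3 kb, against 38.9 kb. Promoters were at hand for 19 of them and for 162 on the higher side, with a median GC content of 66% and 63%. The ratio of observed to expected CpG was at least 0.6 in 14 of the 19 (73.7%) and in 130 of the 162 (80.2%). These properties describe groups set by the contrast and were not tested.

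Of all 234 members 137 share exon sequence with some other gene and 94 with another protein-coding gene. Among the 120 tested members free of overlap with coding genes, 107 were higher in HCC827_Er and the median difference was 0.84, beside 0.82 over all tested members. With the libraries rescaled by their sums, by median ratios or by quantiles the sign stayed the same for every tested member except WDR25, which stood at 0.28 as deposited and at -0.01 with median ratios. Since the table holds hardly any gene with similar levels in the lines, few signs could change, and nothing is read from this.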

How the data were processed

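The authors deposited 1 table of FPKM per gene for 3 HCC827_Er and 3 HCC827 libraries, with no counts, so the depth is unknown. Per the labels' protocols, libraries were prepared from total RNA with a TruSeq kit from Illumina. fastp, HISAT2, StringTie, GRCh38.p14 and hg19 are named in the submitters' processing notes without roles, and how genes were chosen for the table is not given in the sources used here. StringTie divides reads among overlapping transcripts, and FPKM falls for all genes where a few take up more of a library.

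Gene types and positions came by identifier from GENCODE 29, which held 6353 of the 6641 listed genes. Promoters came from RefSeq. Values were taken as log2(FPKM + 1). Genes with at least 1 FPKM in 3 of 6 libraries entered a linear model of the line (limma 3.58.1 under R 4.3.3, moderated with a mean trend), with p-values adjusted by Benjamini-Hochberg over all 5276 genes. The steps were tested on simulated data. Tables were made with pandas 2.3.3.

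The members and role lists were chosen with earlier results of these data known. Named genes were the 6 most abundant members, those at both ends, the largest and lowest calls of each 10 Mb window with at least 5 FPKM in the higher line, and up to 4 called members of each list, or 2 where none was called. A gene that the rule names is not reported here. All other genes were named after their values were seen. Alternatives were other pseudocounts, filters and scalings, no trend, a replicate block, and each library left out.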

Additional observations from a re-analysis of the deposited data

How the results depend on the processing

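The values given for as-deposited levels were 67 members called higher, 11 called lower, a median log2 difference of 0.82 and a median of 0.97 above that of coding genes of other chromosomes. Those other genes had a median of -0.15, with 49.9% positive and quartiles of -0.83 and 1.00. Their median thus falls between 2 sides, where the table holds few genes, and the gap is no typical distance between genes. Median-ratio rescaling gave 32 called higher, a median of 0.52 and a gap of 0.93 to the other chromosomes, and sum rescaling, which shifts HCC827_Er by 0.25, gave 121, 1.05 and 1.00. A pseudocount of 5 gave 32 called higher, 2 called lower, a median of 0.67 and a gap of 0.75, and one of 0.1 gave a median of 0.91 and a gap of 1.10. A minimum of 5 FPKM gave 6 called lower, a median of 0.86 and a gap of 1.35, no filter gave 0.78 and 0.58, and quantile normalisation gave a median of 0.86. Members with a mean of at least 10 FPKM alone had a median of 0.86. Leaving out each library in turn gave 65 to 72 called higher, 11 lower, medians of 0.82 to 0.85 and gaps of 0.93 to 1.00. With the symbols left out added back, chosen after seeing the data, 77 were called higher and 14 lower, with a median of 0.84. The cause of these shifts was not tested. All 9 window medians stayed positive, between 0.39 and 1.18 over all settings. Of single values of named genes 734 kept side and call, 60 lost a call, 8 gained one and none changed sign. With hardly any gene at similar levels in the lines, few signs could change.

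The replicate numbers gave no clear pairing of the libraries: deviations of same-numbered libraries correlated at 0.106, -0.022 and 0.049 across genes. HCC827_Er replicates 1 and 3 correlated best with the HCC827 library of the same number. HCC827_Er replicate 2 correlated best with HCC827 replicate 3, at 0.041. The fit with a replicate block called the same numbers, 67 higher and 11 lower, with a median of 0.82. FPKM without counts give no limit of detection, so values near 0 are listed levels only, and the absence of genes with similar levels in the lines limits every share given here.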

Other observations

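Genes of chromosome 14 that GENCODE 29 does not give as protein-coding were not members. The table lists 41 of them, mostly long non-coding RNAs and pseudogenes, and 29 were tested. The log2 difference was positive in 21 of the 29 (72.4%), with a median of 0.79. Of the 29, 8 were called higher in HCC827_Er and 7 lower, where 24.7% of all genes tested were called higher and 19.7% lower. Nothing is read from these counts. On other chromosomes 48.0% of 666 such genes were positive, with a median of -0.42. LINC00641, a long non-coding RNA, had 3.46, 3.51 and 3.92 FPKM in HCC827_Er and 10.16, 9.25 and 11 FPKM in HCC827 and was called lower, named after its values were seen. Many of these loci overlap coding genes, so their values are not independent of the members. Of the protein-coding genes left out by their symbol, 19 were tested, 15 had a positive difference, and their median was 1.19.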
